A study of Arabidopsis thaliana with 15 samples.

Results

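The comparison described here set the libraries that carry replicate number 3 against those that carry replicate number 2, one library on each side for each of 5 Arabidopsis thaliana lines, so that 10 of the 15 RNA-seq libraries of the series entered it. The members were taken by the number at the end of the sample title a rule that uses no measured value, although the comparison itself was picked with earlier results of these data known. The lines were the wild type Col and 4 T-DNA insertion lines, each labelled as a knock-out of a gene for a pentatricopeptide repeat (PPR) protein: MEF37 (AT5G08305), PGN (AT1G56570), SK055676 (AT3G50420) and SK137584 (AT5G10690). PPR proteins bind organelle transcripts, and the series was made to study their role in RNA editing. All libraries came from untreated rosette leaves of plants grown on peat plugs with 16 h of light at 20 °C, 8 h of darkness at 18 °C and 80% humidity, as the labels give it. The labels state an age of 25.5 days for both libraries of Col, MEF37, PGN and SK055676. For SK137584 they state Boyes growth stage 1.14 in set 2 and, in set 3, planting and harvest dates that lie 41 days apart. No label says what the replicate number stands for, and the series text speaks of 1 biological replicate. Growth batch, harvest, extraction and library preparation therefore cannot be told apart, and p-values measure the spread between these 10 libraries only.

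Rosette leaves are green organs whose nuclear messenger RNA is dominated by genes for photosystem subunits, light-harvesting antenna proteins and the enzymes that fix carbon. Leaves store part of the fixed carbon as starch and keep separate gene programmes for sugar shortage, nutrient supply, cold, drought and light stress, including the red anthocyanin pigments. Many of these genes follow the time of day through the circadian clock, in which morning genes such as CCA1 and evening genes such as TOC1 repress each other. Lists of genes for these functions were therefore read side by side in both replicate sets.

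The total count was 22345097 to 28450968 in set 2 and 21899344 to 29176417 in set 3, and 20657 to 21532 genes had at least 1 read. Levels below are CPM, the counts of a gene per 1000000 counts of its library, scaled by the trimmed mean of M-values (TMM), and 5 values in a row follow the order Col, MEF37, PGN, SK055676, SK137584. TMM factors were 0.900 to 0.927 in set 2 and 1.00 to 1.25 in set 3. The insertion in SK137584 was visible, as AT5G10690 had 3 reads in its set 2 library and 4 in its set 3 library against 201 to 319 in the other lines. PGN had 6 and 16 reads in the PGN line and 19 to 57 in the other lines. AT5G08305 had 20 and 12 reads in the libraries labelled MEF37, within the 8 to 31 of the other lines. AT3G50420 had 11 and 13 reads in the libraries labelled SK055676, within 3 to 29. Counts over all exons of a gene can include reads of interrupted transcripts, so these values neither show nor refute the insertions. Both line names stand for the label only. The headers of the count files name the libraries titled MEF37, SK055676 and SK137584 red, blue and CP, and the line of each was taken from its title. None of the 4 genes was called between the sets, with adjusted p from 0.0665 to 0.783, but AT5G10690 and AT5G08305 were called without MEF37.

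Of 17486 genes tested, 5797 were called at an adjusted p under 0.05 by edgeR's quasi-likelihood test with the line as a block, which is 33.2% of them. 2693 genes (15.4%) were higher and 3104 (17.8%) lower in set 3. The difference was at least 2-fold for 558 of the higher and 724 of the lower genes. Of the called genes 5296 had the same direction in all 5 lines. In 1938 of the tested genes every set 3 library lay above every set 2 library, and in 2331 every set 3 library lay below. The median log2 fold change over all tested genes was 0.03 with TMM and 0.30 when library totals were used without a scaling factor, an alternative added after the data were seen. On library totals 6950 genes were higher and 1638 lower, so the share of higher calls went from 46.5% to 80.9%, and the directions below are relative to the TMM scale unless both are given.

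The lines did not shift by the same amount. Over the 1282 called genes with at least a 2-fold difference, the median log2 shift towards the fitted direction was 1.53 in Col, 0.87 in MEF37, 1.32 in PGN, 1.23 in SK055676 and 1.66 in SK137584. The libraries labelled MEF37 differed least and those of SK137584, whose set 3 label gives dates in place of an age, differed most. The genes were chosen by a fit that includes every line, so these medians are a description only. The 5 libraries of set 1 were no part of the fit, and the mean of set 1 lay nearer set 2 than set 3 for 1135 of the 1282 genes (88.5%).

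**Figure D1:**
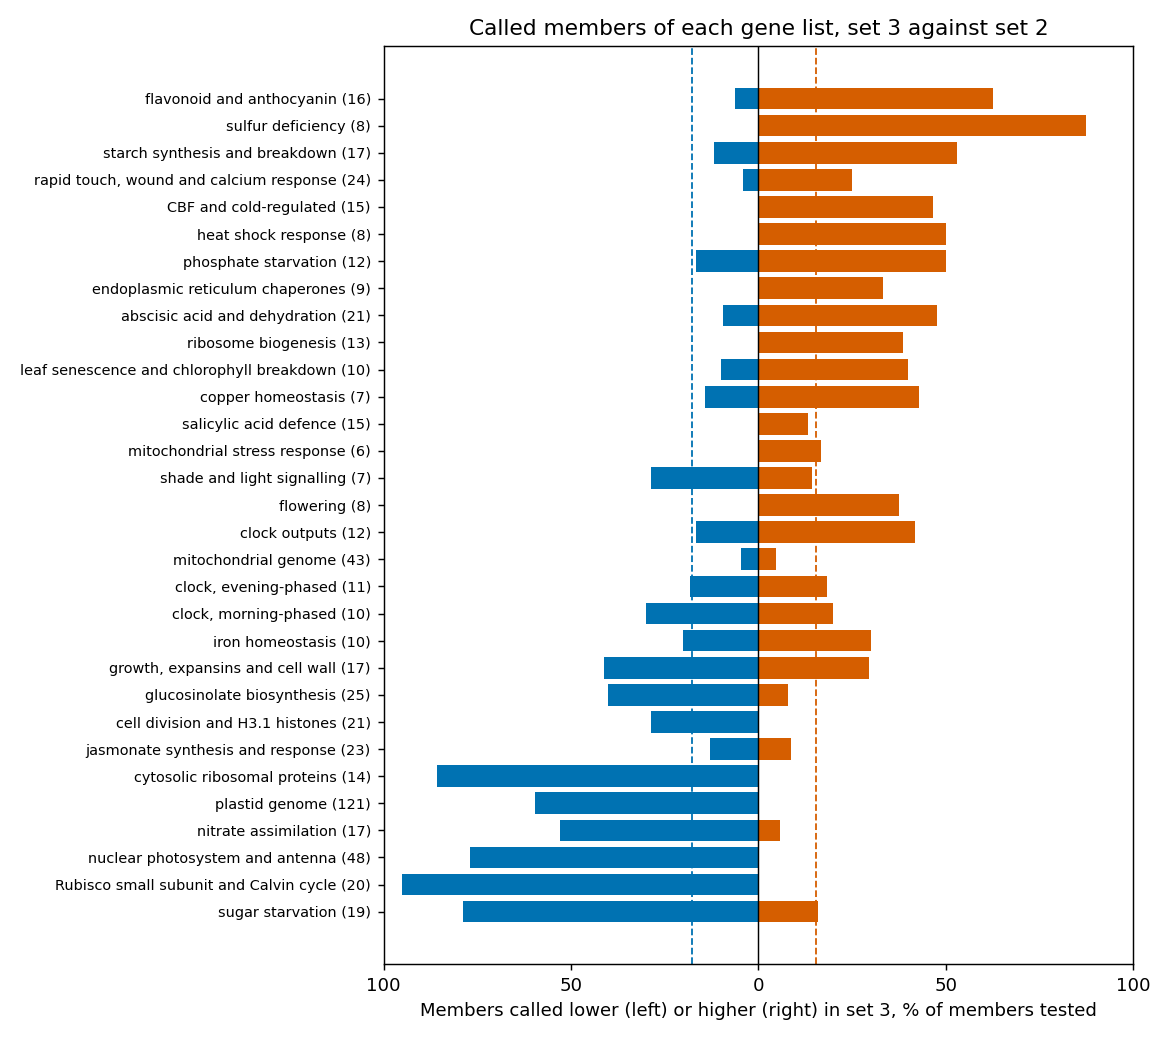
Share of the tested members of each gene list that was called lower (blue, to the left) or higher (orange, to the right) in set 3, in % of the members tested, whose number is in brackets; lists are ordered by their median log2 fold change. The dashed lines mark the shares over all tested genes, 17.8% lower and 15.4% higher, and the bars of the Calvin cycle (19 of 20 lower), cytosolic ribosomal protein (12 of 14), sugar starvation (15 of 19) and photosystem (37 of 48) lists reach furthest to the left among the functional lists.

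Genes for photosynthesis were lower in set 3. Of 48 nuclear genes for photosystem, antenna, electron transport and ATP synthase subunits, all 48 were tested, 37 were called lower and 0 higher, against 17.8% lower over all genes, with a median log2 fold change of -0.78. On library totals 32 were lower and 0 higher, with a median of -0.51. By role, 13 of 20 antenna genes (LHCA, LHCB), 11 of 12 photosystem I genes (PSA), 8 of 11 photosystem II genes (PSB) and 5 of 5 genes for plastocyanin, the Rieske protein and ATP synthase were lower. In these bulk samples fewer cells with a transcript and less transcript per cell cannot be told apart.

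LHCA6, an antenna protein that links photosystem I to the NADH dehydrogenase-like complex, had 37.9, 40.5, 44.3, 43.1 and 37.1 CPM in set 2. In set 3 it had 10.1, 25.7, 17.61, 20.4 and 7.21 CPM, below set 2 in every line. The log2 fold change was -1.45 (SE 0.22, adjusted p = 0.00165, edgeR's quasi-likelihood test). ATPD, the delta subunit of the chloroplast ATP synthase, went from 409 ± 68.4 CPM (SD, n = 5) in set 2 to 180 ± 84.1 CPM in set 3. PSBO2, a subunit of the oxygen-evolving complex, went from 670 ± 95.6 CPM to 277 ± 127 CPM, with a log2 fold change of -1.41 (SE 0.25, adjusted p = 0.00314). For each of these genes all 5 set 3 libraries lay below all 5 set 2 libraries. The antenna gene LHCB1.4, named after its values were seen, was at 2754, 3239, 4117, 3619 and 3137 CPM in set 2 and at 616, 2458, 1193, 1863 and 349 CPM in set 3. The LHCB1 and LHCB2 genes have near-identical copies, and since reads with several best positions were counted at each, their single values are uncertain. Left out in turn, the lines changed the number of lower genes from 37 to between 16, without PGN, and 46, without MEF37; without Col it was 21 and without SK137584 24.

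The genes of carbon fixation were lower as well. Of 20 genes for the Rubisco small subunit, Rubisco activase and the Calvin cycle, 19 were lower and 0 higher, against 17.8% lower over all genes. The median log2 fold change was -1.03, and 19 were called on library totals and without each line. Only CP12-1, a small regulator of the cycle, was not called among them. PRK, phosphoribulokinase, had 459, 539, 562, 532 and 465 CPM in set 2 and 221, 328, 272, 292 and 161 CPM in set 3. The groups did not overlap, and the log2 fold change was -1.04 (SE 0.14, adjusted p = 0.00104, edgeR's quasi-likelihood test). GAPB, a glyceraldehyde-3-phosphate dehydrogenase subunit, went from 922 ± 87.6 CPM to 360 ± 147 CPM (SD, n = 5), and FBA1, a plastid aldolase, from 355 ± 42.7 CPM to 182 ± 57.0 CPM. RBCS1A, a Rubisco small subunit gene named after its values were seen, had 6110, 5453, 6259, 6556 and 5794 CPM in set 2 and 1534, 4029, 2151, 2994 and 1035 CPM in set 3. CA1, the plastid carbonic anhydrase and also named afterwards, was at 1122 to 1292 CPM in set 2 and at 116 to 827 CPM in set 3. In both genes MEF37 was the highest and SK137584 the lowest library of set 3. In set 1, RBCS1A was at 3943 to 6815 CPM and GAPB at 772 ± 60.9 CPM.

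**Figure D2:**
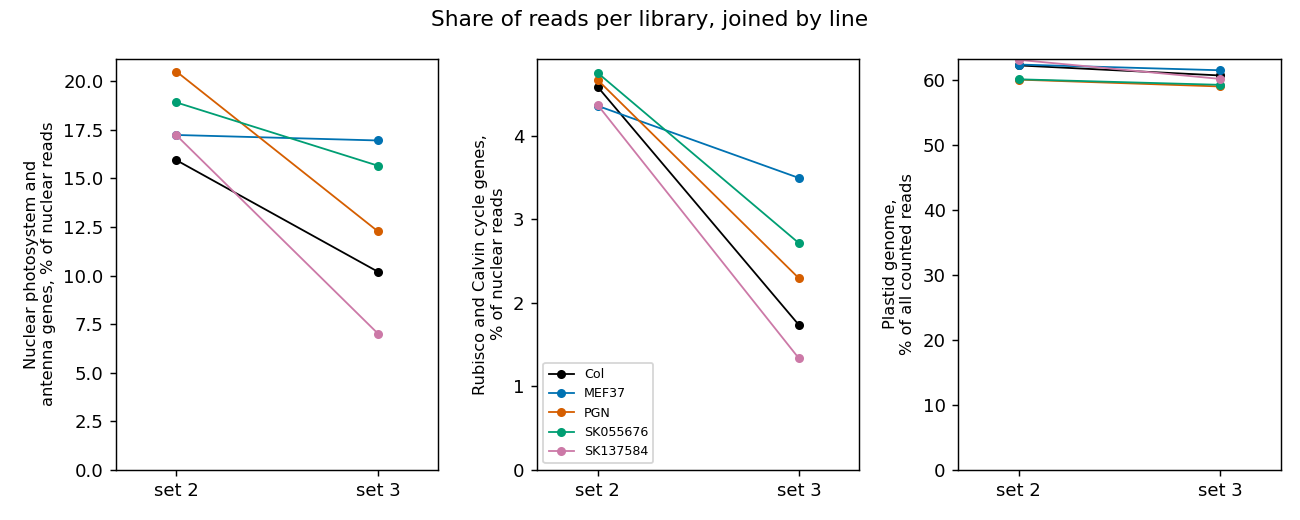
Share of reads per library in sets 2 and 3, each line joining the libraries of 1 line; the y axes start at 0. The nuclear photosystem and antenna genes took 15.9% to 20.5% of nuclear reads in set 2 and 7.01% to 17.0% in set 3, and Calvin cycle genes 4.36% to 4.76% and 1.33% to 3.50%, while the plastid genome took 60.1% to 63.2% and 59.1% to 61.6% of all reads.

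As a share of nuclear reads, which uses no scaling factor, the photosystem list took 18.0% ± 1.77 in set 2 and 12.4% ± 4.04 in set 3 (SD, n = 5), and the Calvin cycle list 4.55% ± 0.178 and 2.31% ± 0.846. Both shares were lower in set 3 in 5 of 5 lines. The exact sign-flip permutation test over the 5 pairs gave a two-sided p of 0.062 for each, the smallest that 5 pairs allow. The plastid genome took 61.6% ± 1.41 of all counted reads in set 2 and 60.2% ± 1.03 in set 3. The difference of -1.45 percentage points had the same sign in 5 of 5 lines (p = 0.062, same exact permutation test). The mitochondrial genome took 0.980% ± 0.0665 and 1.25% ± 0.197, higher in set 3 in 5 of 5 lines, with the same p of 0.062.

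Within the plastid genome the calls were read by class of gene. The files name plastid genes by locus only, and 122 of the 132 could be named from RefSeq by equal start and end. Of 121 plastid genes tested, 72 were lower in set 3 and 0 higher, against 17.8% lower over all genes. The median log2 fold change was -0.58. The plastid RNA polymerase subunits (rpoA, rpoB, rpoC1, rpoC2) were lower in 4 of 4, with a median of -0.98. Plastid ribosomal proteins were lower in 19 of 23, with a median of -0.87, NADH dehydrogenase-like subunits (ndh) in 9 of 9, with -0.66, and ATP synthase subunits (atp) in 3 of 6, with -0.53. Of 26 genes for photosystem and cytochrome subunits (psa, psb, pet), 2 were lower, with a median of -0.18. On library totals the medians were -0.70 for the polymerase, -0.60 for ribosomal proteins and 0.09 for psa, psb and pet genes, and the number of plastid genes lower went from 72 to 45, with 1 higher. It was 47 without SK055676 and 49 without PGN. The difference between these classes was not tested. The inverted repeat holds some plastid genes as identical copies, whose reads were counted at both.

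**Figure D3:**
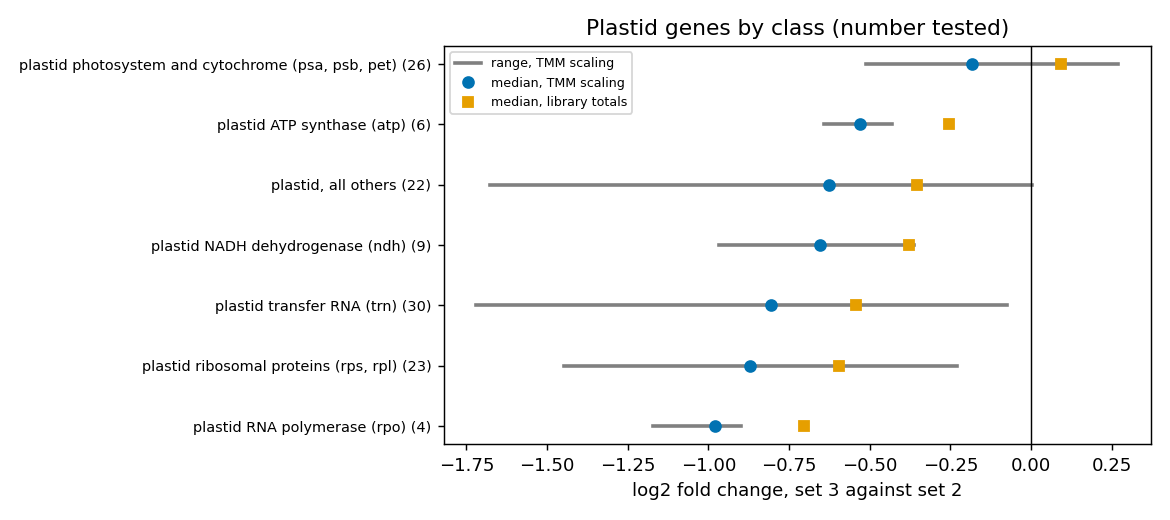
Log2 fold change of plastid genes between set 3 and set 2 by class, with the number tested in brackets; circles are medians and grey bars the range on the TMM scale, squares medians on library totals. The RNA polymerase genes lie furthest left, at -0.98 and -0.70, and the psa, psb and pet genes nearest 0.

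The plastid gene rps16, for a small ribosomal subunit protein, was named after its values were seen and had 30.5, 29.1, 34.6, 36.2 and 27.8 CPM in set 2 and 9.19, 15.8, 11.9, 12.8 and 9.17 CPM in set 3. Its log2 fold change of -1.45 (SE 0.13, adjusted p = 0.000198, edgeR's quasi-likelihood test) had the smallest adjusted p among plastid genes. rbcL, the Rubisco large subunit, took 14.8% ± 1.29 of reads in set 2 and 12.4% ± 2.02 in set 3, and psbA, the D1 protein of photosystem II, 27.9% ± 1.75 and 29.0% ± 3.51. Neither was called (adjusted p = 0.199 and 0.601), and each was lower in 3 of 5 lines as a share of reads. Both were named after their values were seen. Of 43 mitochondrial genes tested, 2 were higher and 2 lower, which is 9.3% called against 33.2% over all genes. On library totals 14 were higher and 0 lower, and 1 was called without SK055676 and 2 without PGN or without SK137584.

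Promoters were searched for motifs, which the lists had not used. The G-box, CACGTG, is bound by basic leucine zipper and basic helix-loop-helix factors, among them those of light and abscisic acid signalling. In the 300 bases from 250 before to 50 after the annotated start, 16 of 48 promoters of the photosystem list held it (33.3%), against 2107 of 27443 over all protein-coding genes (7.68%). It was 20.0% in the Calvin cycle list and 5.0% in the sugar starvation list. Other lists held it as often or more often, among them the morning-phased clock genes (81.8%), endoplasmic reticulum chaperones (66.7%), iron (38.9%), starch (35.3%) and CBF cold response (33.3%) genes. Flavonoid genes held it nearly as often (31.8%). Among all called genes it was 9.99% for those higher and 8.42% for those lower. Both strands were searched. The windows below are shown because they hold the motif in genes that were lower in set 3; the capitals mark the G-box, which here overlaps an abscisic acid response element core (ACGTGT or ACGTGG).
ATPD, chr4:6100562-6100587, plus strand: caaacaactcCACGTGtcgattcctc
PRK, chr1:11532016-11532041, plus strand: tagaatctccCACGTGtcaattcaaa
DIN6, chr3:17441583-17441608, minus strand: gtcgtgataaCACGTGtacggctcta
The motif starts 142 bases before the start of ATPD, 173 before that of PRK and 167 before that of DIN6, a gene of the sugar starvation list. Sequences are from RefSeq TAIR10.1, whose nuclear gene starts and ends equal those of the files for 99.95% of the 32548 genes matched. The telo-box (AAACCCTA), known from promoters of genes for translation, occurred in 35.7% of the cytosolic ribosomal protein promoters and 6.22% of all, and the site II element (TGGGCC) in 57.1% and 15.5%. The telo-box was more frequent in the ribosome assembly list (69.2%), whose called members were higher. Site II was in 53.8% of that list and in 52.6% of heat shock promoters, whose called members were also higher. It was in 44.4% of endoplasmic reticulum chaperone promoters. Of these 9 chaperone genes 3 were higher and 0 lower, which is 33.3% called against 33.2% over all genes. Without Col, without PGN or without SK055676 1 of them was called. Site II was in 20.4% of the promoters of tested genes, 21.5% of those called lower and 15.1% of those called higher. A match of letters is a description and no evidence of binding.

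Genes that mark sugar shortage were lower in set 3, and genes of starch turnover were mostly higher. These dark-inducible (DIN) genes are induced when leaves run out of carbohydrate. Of 19 tested genes of the sugar starvation list, 15 were lower and 3 higher, against 17.8% lower and 15.4% higher over all genes. The median log2 fold change was -1.21. The count of called genes was 18 without each line and 17 on library totals. DIN6 (ASN1), an asparagine synthetase, had 42.8, 44.2, 77.0, 81.3 and 54.0 CPM in set 2 and 0.728, 9.96, 4.196, 3.99 and 0.184 CPM in set 3. No library of set 3 reached set 2, and the log2 fold change was -4.46 (SE 0.61, adjusted p = 0.00109, edgeR's quasi-likelihood test). DIN10, a raffinose synthase family gene, went from 29.0 ± 8.53 CPM to 2.01 ± 1.37 CPM (SD, n = 5), with a log2 fold change of -3.98 (SE 0.21, adjusted p = 2.52e-05). DIN1 (SEN1), named after its values were seen, was at 13.0 to 23.62 CPM and at 0.399 to 4.06 CPM. GDH2, a glutamate dehydrogenase, had 71.6, 85.2, 75.3, 80.8 and 87.2 CPM in set 2 and 13.0, 22.2, 13.3, 15.1 and 9.75 CPM in set 3. BT2, a BTB and TAZ domain protein under sugar and nitrogen control, had 5.06, 20.3, 11.99, 5.27 and 7.39 CPM in set 2 and 0, 1.51, 0.191, 0.0972 and 0.0613 CPM in set 3. In set 1, DIN6 was at 41.6 to 99.1 CPM and DIN10 at 16.5 to 28.7 CPM, the levels of set 2, whereas BT2 was at 0.834 to 3.76 CPM, between the others.

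The 3 genes of the list that were higher are TPS5, BCAT2 and PPDK. TPS5, a class II trehalose phosphate synthase known to be raised by sugar, was at 17.62 to 21.0 CPM in set 2 and at 38.4 to 75.3 CPM in set 3 (log2 fold change 1.54, SE 0.14, adjusted p = 0.00026). BCAT2, a branched-chain aminotransferase, was at 1.37 to 4.07 CPM and at 5.41 to 35.4 CPM. Both were named after their values were seen.

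Of 17 genes for starch synthesis and breakdown, 9 were higher and 2 lower in set 3, against 15.4% higher over all genes, with a median log2 fold change of 0.60. BAM3, the main plastid beta-amylase of leaves, had 89.9, 70.4, 95.7, 84.8 and 85.5 CPM in set 2. In set 3 it had 449, 210, 367, 288 and 579 CPM, above every library of set 2. Its log2 fold change was 2.07 (SE 0.18, adjusted p = 0.000198, edgeR's quasi-likelihood test). ISA3, a debranching enzyme, went from 65.7 ± 3.39 CPM to 198 ± 60.4 CPM, and SEX4, a phosphoglucan phosphatase, from 43.4 ± 1.75 CPM to 118 ± 26.0 CPM (SD, n = 5). On the synthesis side, APL3, a large subunit of ADP-glucose pyrophosphorylase that responds to sugar, was at 13.0 to 14.4 CPM and at 29.4 to 80.5 CPM, and GBSS1, granule-bound starch synthase, at 5.15 to 7.42 CPM and at 8.86 to 46.7 CPM. Both were named after their values were seen. The lower genes were LSF1 and APL1, whose log2 fold changes were -0.63 and -0.74.

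**Figure D4:**
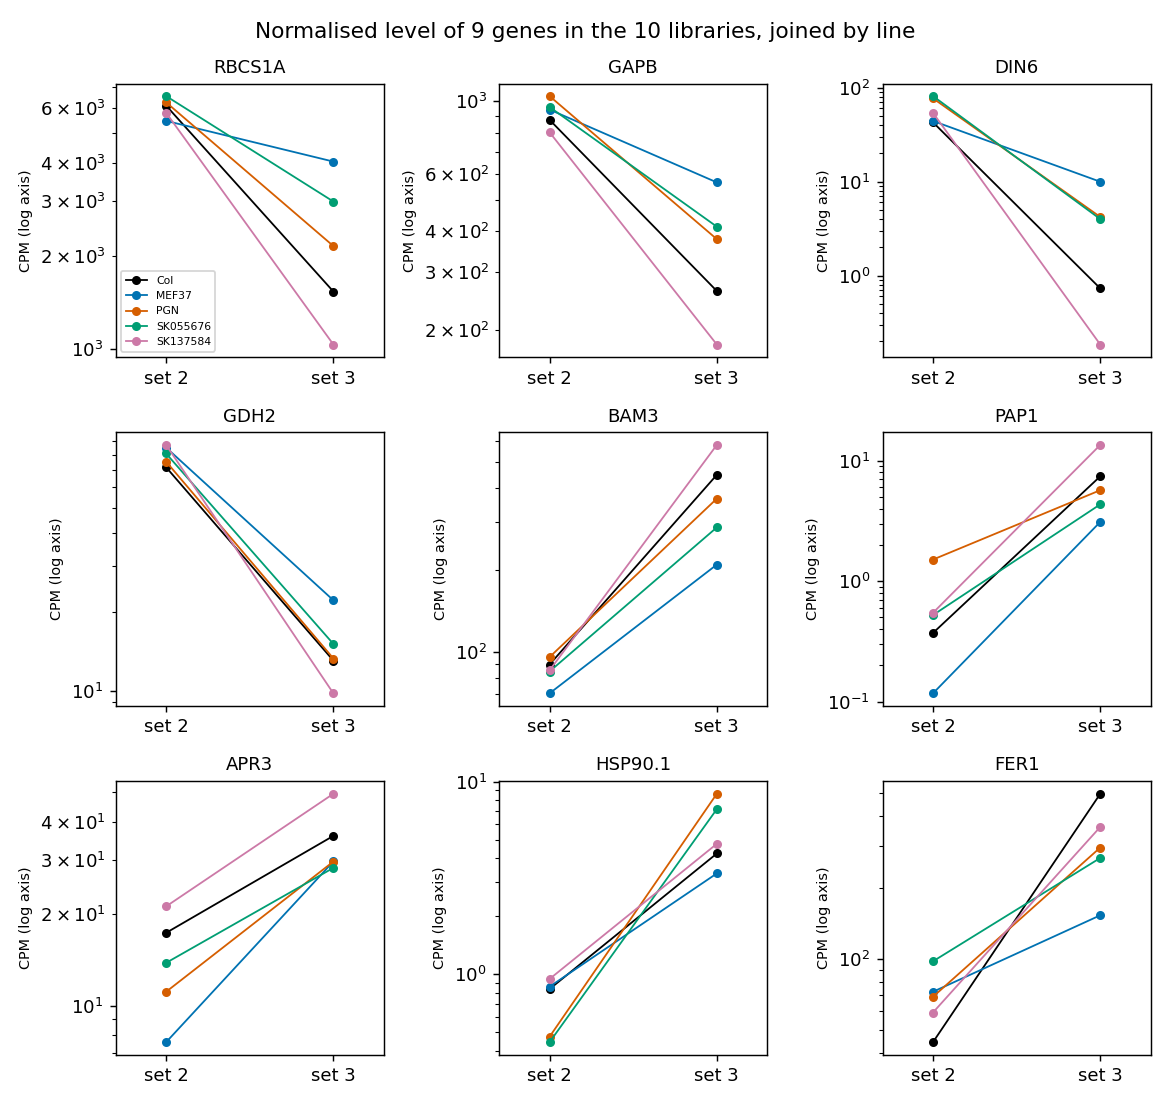
Normalised level in CPM on a log axis of 9 genes in the 10 libraries, with the libraries of a line joined. RBCS1A, GAPB, DIN6 and GDH2 are lower and BAM3, PAP1, APR3, HSP90.1 and FER1 higher in set 3 in all 5 lines; in most panels MEF37 has the flattest line.

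Anthocyanin genes were among the genes with the largest differences. Of 22 flavonoid and anthocyanin genes, 16 were tested, 10 were higher and 1 lower, against 15.4% higher over all genes. The median log2 fold change was 1.46. A gene could pass the filter on low counts through set 3 alone, so this count and median depend in part on the filter. With at least 50 reads in every library, 6 were tested, 1 was higher and 1 lower, with a median of 0.365. PAP2 (MYB90), a MYB factor that switches on the pigment pathway, had 0, 0, 0, 1 and 1 reads in set 2, and 0.639 to 15.8 CPM in set 3, from 872 reads in all. The ratio of the pooled CPM was 339 with a 95% counting interval of 93.6 to 2810. TT19 (GSTF12), a glutathione transferase needed for pigment transport to the vacuole, had 3 reads in set 2 and 1020 in set 3, a ratio of 265 (interval 90.3 to 1280). These intervals cover counting error only. PAP1, the closest relative of PAP2, had 0.371, 0.117, 1.51, 0.523 and 0.546 CPM in set 2 and 7.42, 3.11, 5.69, 4.34 and 13.5 CPM in set 3, without overlap (log2 fold change 3.45, SE 0.37, adjusted p = 0.000462, edgeR's quasi-likelihood test). LDOX, the anthocyanidin synthase, was at 0 to 0.149 CPM and at 0.413 to 7.91 CPM, and both genes were named after their values were seen. UGT78D1, a flavonol rhamnosyltransferase, went from 10.5 ± 1.53 CPM to 27.3 ± 3.55 CPM (SD, n = 5). Among the early genes of the pathway CHS, chalcone synthase, had a log2 fold change of 0.77 (adjusted p = 0.115, called without MEF37) and CHI one of 0.12 (adjusted p = 0.608). The lower gene was MYBL2, a repressor of the pathway, at 11.6 to 29.6 CPM in set 2 and 4.997 to 10.1 CPM in set 3. Without MEF37 the called genes numbered 14.

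Nitrogen and sulfur genes differed in opposite directions. Of 17 tested nitrate assimilation genes, 9 were lower and 1, RFNR2 (not called without SK055676), higher, against 17.8% lower over all genes. The median log2 fold change was -0.67. NIR1, nitrite reductase, had 30.9, 53.5, 54.5, 38.2 and 36.6 CPM in set 2 and 13.3, 28.0, 15.8, 21.9 and 7.33 CPM in set 3. The libraries of set 3 all lay below those of set 2 (log2 fold change -1.40, SE 0.21, adjusted p = 0.0015, edgeR's quasi-likelihood test). HHO3, a nitrate-responsive repressor, went from 21.9 ± 5.08 CPM to 5.19 ± 3.50 CPM, and LBD38, a repressor of nitrogen genes, from 6.43 ± 1.70 CPM to 1.41 ± 1.24 CPM (SD, n = 5). The nitrate reductase gene NIA1 had a log2 fold change of -1.76, while its paralogue NIA2 had one of 0.07 (adjusted p = 0.927). In set 1, NIR1 was at 9.13 to 9.82 CPM in Col, MEF37 and PGN and at 29.95 and 26.4 CPM in SK055676 and SK137584.

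Of 8 tested sulfur deficiency genes, 7 were higher and 0 lower, against 15.4% higher over all genes. The median log2 fold change was 0.82. The count of higher genes was 4 without PGN or without SK055676 and 5 without MEF37. APR1, an adenosine phosphosulfate reductase, had 21.6, 13.4, 19.6, 19.8 and 26.5 CPM in set 2 and 38.0, 28.3, 39.6, 37.0 and 44.0 CPM in set 3 (log2 fold change 0.91, SE 0.09, adjusted p = 0.000291, edgeR's quasi-likelihood test). APR3, a second reductase, went from 14.2 ± 5.28 CPM to 34.6 ± 8.83 CPM. GGCT2;1, a glutathione-degrading enzyme, went from 0.978 ± 0.617 CPM to 2.67 ± 1.54 CPM, with overlapping libraries but a higher level in set 3 in each line. In set 1 APR1 was at 29.2 to 43.8 CPM, the range of set 3, so that for this gene set 2 was the lowest of the sets. Of 12 tested phosphate starvation genes 6 were higher and 2 lower, against 15.4% higher and 17.8% lower over all genes. DESeq2 called 5 higher and 1 lower. The list has 19 members, and a gene could pass the filter on low counts through set 3 alone. With no filter beyond 1 read in at least 3 libraries 17 were tested, 6 were higher and 2 lower. The median log2 fold change was then 0.20, against 0.38 in the main fit. With at least 50 reads in every library 6 were tested, 3 were higher and 1 lower, with a median of 0.41. MGD3, a galactolipid synthase, went from 0.241 ± 0.0928 CPM to 2.08 ± 1.03 CPM. PHO2, a ubiquitin conjugase that restrains phosphate uptake, went from 55.6 ± 3.36 CPM to 124 ± 39.1 CPM.

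Genes for cytosolic translation were lower. Of 14 cytosolic ribosomal protein genes, 12 were lower and 0 higher, against 17.8% lower over all genes. The median log2 fold change was -0.51, but on library totals 5 were lower, with a median of -0.24. Without SK055676 8 were lower. RPS13A, of the small subunit, had 35.3, 30.4, 29.98, 36.7 and 28.1 CPM in set 2 and 19.2, 21.2, 16.9, 17.7 and 14.0 CPM in set 3. The levels did not overlap (log2 fold change -0.86, SE 0.10, adjusted p = 0.000544, edgeR's quasi-likelihood test). RPS15AA went from 47.3 ± 3.62 CPM to 29.9 ± 5.29 CPM and RPS18A from 18.0 ± 1.15 CPM to 11.1 ± 1.79 CPM. Of 13 genes for ribosome assembly in the nucleolus, 5 were higher and 0 lower, with a median of 0.32. The share called, 38.5%, is near the 33.2% over all genes. DESeq2 called 2 of these genes, and 1 was called without PGN, without SK055676 or without SK137584. Of 21 tested cell division genes, 6 were lower and 0 higher, which is 28.6% called against 33.2% over all genes. Of these 6, 5 encode the replication-dependent histone H3.1, near-identical genes whose reads cannot be told apart with certainty, and 1 is TSO2, a ribonucleotide reductase subunit, which was not called without Col, without PGN or without SK137584.

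Genes of abscisic acid, cold and heat responses were higher in part. Of 21 tested abscisic acid and dehydration genes 10 were higher and 2 lower, against 15.4% higher and 17.8% lower over all genes. The median log2 fold change was 0.33. GOLS2, a galactinol synthase of the raffinose pathway, had 0.511, 0.195, 0.897, 0.483 and 0.546 CPM in set 2 and 37.0, 3.33, 17.7, 5.12 and 24.6 CPM in set 3. Its lowest library in set 3 lay above its highest in set 2 (log2 fold change 4.86, SE 0.32, adjusted p = 6.41e-05, edgeR's quasi-likelihood test). ABI2, a phosphatase of the abscisic acid pathway, went from 4.39 ± 0.786 CPM to 9.64 ± 2.15 CPM and RD20, a caleosin, from 6.28 ± 2.21 CPM to 11.9 ± 3.38 CPM. NCED3, the enzyme that limits abscisic acid synthesis, had a log2 fold change of -0.38 (adjusted p = 0.156). With all 15 libraries in the fit 7 were higher and 1 lower.

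Of 15 genes of the CBF cold response, 7 were higher and 0 lower, against 15.4% higher and 17.8% lower over all genes. The median log2 fold change was 0.50. DESeq2 and the fit of all 15 libraries each called 7 higher and 1 lower. Without Col 6 were higher and 2 lower, with a median of 0.28. CBF3, a transcription factor of cold acclimation, was at 2.38 to 3.05 CPM in set 2 and at 5.48 to 13.1 CPM in set 3. RD29A, one of its targets, had 165, 110, 131, 113 and 111 CPM in set 2 and 475, 178, 369, 280 and 591 CPM in set 3, without overlap (log2 fold change 1.49, SE 0.21, adjusted p = 0.00138, edgeR's quasi-likelihood test). KIN2 went from 182 ± 21.9 CPM to 337 ± 60.3 CPM, whereas COR15A, another target, had a log2 fold change of 0.33 (adjusted p = 0.110, called without MEF37). Of 19 heat shock genes 8 were tested, 4 were higher and 0 lower, against 15.4% higher over all genes. DESeq2 called 3 of them, and with at least 50 reads in every library 2 were tested and 0 called. HSP90.1, a heat-induced chaperone, had 0.836, 0.860, 0.472, 0.443 and 0.943 CPM in set 2 and 4.23, 3.33, 8.65, 7.19 and 4.75 CPM in set 3. HSP70 went from 0.440 ± 0.234 CPM to 3.09 ± 0.814 CPM. PGN and SK055676 were the highest libraries of set 3 for HSP90.1, an order unlike that of the photosynthesis genes. HSP101, the disaggregase of the heat response, had a log2 fold change of 0.42 (adjusted p = 0.122, called without Col).

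Clock genes were called in both directions. Of 10 tested morning-phased genes, 2 were higher and 3 lower, with a median log2 fold change of -0.06. That is 5 of 10 called against 33.2% over all genes, and the count was 3 without PGN or without SK055676 and 7 without MEF37. CCA1 had 1.35, 2.696, 2.36, 2.01 and 1.44 CPM in set 2 and 2.95, 1.14, 2.42, 2.01 and 2.58 CPM in set 3, overlapping sets with a log2 fold change of 0.16 (SE 0.30, adjusted p = 0.709, edgeR's quasi-likelihood test). LHY, its partner, had one of -0.35 (SE 0.20, adjusted p = 0.201). RVE2, a related MYB gene, was at 1.93 to 3.48 CPM in set 2 and at 0.347 to 1.37 CPM in set 3 and had the largest difference of the clock lists, with a log2 fold change of -2.02 (SE 0.27). RVE4 and LNK2 were lower, with -0.74 and -0.39, and LNK1 and PRR9 higher, with 0.59 and 1.42. PRR9 was called in the fit of all lines and without MEF37, but not without any other line, and LNK2 was not called without PGN or without SK055676. PRR7, RVE6 and RVE8 were not called, but PRR7 was without SK137584 and the other two were without MEF37.

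Of 11 evening-phased genes, 2 were higher and 2 lower, with a median of -0.02, and on library totals 4 were higher and 0 lower. The share called, 36.4%, is near the 33.2% over all genes, and the count was 1 without SK055676 and 2 without MEF37 or without PGN. TOC1 had 76.1, 79.4, 72.04, 68.96 and 78.9 CPM in set 2 and 45.0, 68.9, 52.9, 56.4 and 52.1 CPM in set 3 (log2 fold change -0.46, SE 0.11, adjusted p = 0.0107). ELF3 was lower, with -0.27, but was not called when any line other than SK137584 was left out, and turned to 0.01 on library totals. FKF1 and ELF4 were higher, with 0.36 and 0.46. FKF1 was not called without SK055676, and ELF4 was called without Col but not without any other line. GI, a large clock protein with a wide daily swing, was at 126 ± 5.80 CPM in set 2 and 136 ± 10.5 CPM in set 3 (adjusted p = 0.400). PRR3, PRR5, LUX, BOA, CHE and ZTL were not called. PRR3 had a log2 fold change of -0.02 with TMM and 0.25 on library totals, and CHE, BOA and LUX also turned from below to above 0 there. Of the 12 tested clock outputs, 5 were higher and 2 lower, which is 58.3% called against 33.2% over all genes. The catalases CAT2 and CAT3, whose transcripts peak at opposite times of day, went from 117 ± 24.9 CPM to 38.5 ± 10.2 CPM and from 2294 ± 211 CPM to 3845 ± 438 CPM.

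**Figure D5:**
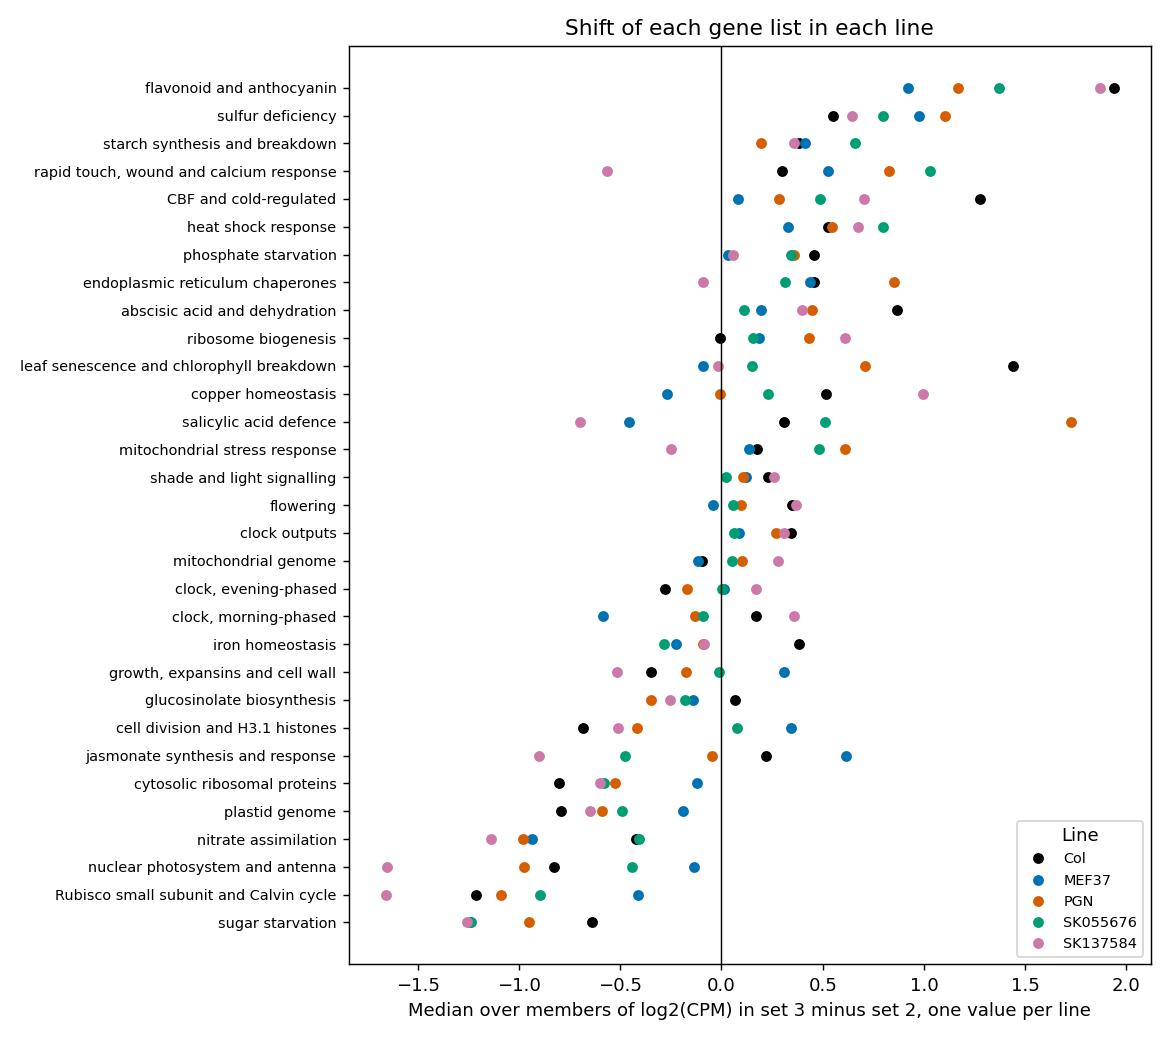
Median over the tested members of each list of log2(CPM) in set 3 minus set 2, 1 point per line. For the flavonoid, sulfur, starch and heat lists all 5 points lie right of 0, for the sugar starvation, Calvin cycle, photosystem, nitrate and ribosomal protein lists all 5 lie left of it, and the jasmonate and salicylic acid lists have points on both sides.

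The genes with the largest differences at a mean of at least 1 CPM on the log2 scale and the same direction in all lines were partly outside these lists. NUDT24, which encodes a Nudix hydrolase, had 0, 0, 0, 0 and 1 reads in set 2 and 179, 22, 73, 35 and 725 reads in set 3, and 0 reads in all 5 libraries of set 1. It passed the filter on low counts through set 3 alone. The ratio of pooled CPM was 805 with a 95% counting interval of 144 to 31800. That interval covers counting error only and not the spread between libraries, and SK137584 gave 725 of the 1034 reads of set 3. Of the other genes among the 10 highest, AT2G16660, for a major facilitator superfamily protein, was at 1.37 to 2.43 CPM in set 2 and at 21.3 to 45.8 CPM in set 3 (log2 fold change 4.32, SE 0.14, adjusted p = 2.14e-06, edgeR's quasi-likelihood test). In set 1 it was at 1.53 to 3.81 CPM in 4 lines and at 23.7 CPM in SK055676. AT1G80130, a tetratricopeptide repeat protein, went from 2.27 ± 0.323 CPM to 46.8 ± 33.2 CPM, and AT2G47880, a glutaredoxin, from 1.26 ± 0.235 CPM to 15.4 ± 6.40 CPM (SD, n = 5). AT1G34060, AT2G38995 and AT1G76960 had log2 fold changes of 5.13, 4.13 and 3.69.

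On the lower side, AT1G66760, a MATE efflux family gene, had 11.1, 13.8, 17.9, 19.0 and 17.7 CPM in set 2 and 0.0694, 1.60, 0.0318, 0.162 and 0 CPM in set 3. It had the largest difference among the 10 lowest genes (log2 fold change -5.78, SE 0.63, adjusted p = 0.000481, edgeR's quasi-likelihood test). AT4G36850, a PQ-loop transmembrane protein, UMAMIT33, an amino acid transporter family gene, and THI2.2, a thionin, were at 6.99 to 15.0 CPM in set 2 and at 0 to 2.06 CPM in set 3. In each of these genes the highest library of set 3 was MEF37. In set 1 they were at 4.29 to 15.1 CPM. AT1G49500 and AT3G55646 had log2 fold changes of -4.54 and -4.25. NAI2, a component of endoplasmic reticulum bodies, which hold defence beta-glucosidases, had 4.04, 8.99, 4.34, 8.53 and 3.82 CPM in set 2 and 0.243, 0.411, 0.254, 0.259 and 0.276 CPM in set 3.

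Markers of other organs were near 0. The 3 shoot meristem markers STM, WUS and CLV3 had 0 reads, and the summed level was at most 0.446 CPM over the 6 flower markers and at most 0.0913 CPM over the 5 seed markers in the 10 libraries. Of 7 root markers, 1 was tested, PYK10, a beta-glucosidase of endoplasmic reticulum bodies that seedlings also make in the shoot. The summed level of the list was 0.511 to 9.10 CPM in set 2 and 0 to 0.159 CPM in set 3. PYK10 had 11, 231, 15, 89 and 50 reads in set 2, 0, 0, 5, 0 and 0 in set 3 and 57 to 1796 in set 1. The root hair markers COBL9, EXPA7, LRX1 and PRP3 had 0 reads in sets 2 and 3. PYK10 was named after its values were seen. The 5 rosette leaf markers were all present in each library and all lower in set 3, as listed above for RBCS1A, CA1 and LHCB1.4. Of 6 guard cell and vascular markers, SUC2, a phloem sucrose transporter, was higher, with a log2 fold change of 0.42.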

How the data were processed

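Libraries were stranded, ribosomal RNA depleted total RNA libraries read single-end over 75 nt. The authors mapped reads with STAR without spliced alignment, kept every best position and deposited counts per gene, made with featureCounts on exons of the TAIR10 annotation, by strand and with multi-mapped reads. The counts were used as deposited, with no normalization by the authors. Sets and lines were taken from the sample titles. Genes passing edgeR's filter on low counts (by set) were scaled by TMM and tested in R 4.3.3 with edgeR 4.0.16 (quasi-likelihood test, line as block, Benjamini-Hochberg adjusted p under 0.05 over all genes); DESeq2 1.42.0 served as an alternative. The members and lists were chosen with earlier results of these data known. Genes named were the called genes of largest change, 10 in each direction, at a mean log2 CPM of at least 1 and 1 direction in 5 lines, up to 3 called members with the smallest p per list, the clock genes tested and the 4 insertion genes; every other named gene was chosen after its values were seen. Of 547 list genes 516 carried the symbol used here in RefSeq. Replicate sets were paired by line name only. Deviations of the libraries of a line from their set means had a mean correlation of 0.0581, against -0.0134 for other pairs, over 7581 genes. By line the correlation ran from -0.178 in MEF37 to 0.392 in SK137584, so the mean does not settle what the sets share. No 2 libraries of a set were alike, as the variance between any pair was 5.74 to 90.9 times that of sampling. The fit was tested on simulated data in which few genes were changed, as many up as down. That setting does not test the scaling on data where many genes differ, as here. Mitochondrial genes were summarised together because the annotation used here did not pair their identifiers with names. A floor of 3 counts was used, and intervals are 95% exact binomial.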

Additional observations from a re-analysis of the deposited data

Results flagged for a closer look

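In 244 checks of named genes and library shares, 18 times 1 library stood apart from the other 4 of its set, where chance gives about 1 in 20. The cause was not tested for any of them. The library labelled MEF37 stood apart in set 3 for AT2G16660 (21.3 CPM against 39.5 to 45.8), AT1G66760 (1.60 against 0 to 0.162), AT4G36850 (1.096 against 0 to 0.194), BT2 (1.51 against 0 to 0.191), NAI2 (0.411 against 0.243 to 0.276), RD20 (6.03 against 12.2 to 14.2), BOA (3.24 against 2.08 to 2.24) and RFNR2 (3.74 against 5.79 to 6.77). In each of these 8 genes it deviated towards the mean of set 2.

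The library of SK137584 stood apart in set 3 for CAT2 (20.5 CPM against 41.2 to 45.4), GGCT2;1 (5.40 against 1.64 to 2.22), PRR7 (66.7 against 44.0 to 49.4) and AT3G50420 (0.889 against 0.421 to 0.486). Its insertion gene AT5G10690 stood apart in both sets, at 0.149 CPM in set 2 against 10.3 to 14.8 and at 0.123 CPM in set 3 against 6.97 to 12.2. NUDT24 was at 0.0496 CPM in the set 2 library of SK137584, from 1 read, and at 0 in the others. In set 3, EDS5 stood apart in PGN (7.09 CPM against 3.83 to 4.41), PYK10 in PGN (0.159 CPM against 0 in the others) and NIA1 in Col (2.29 CPM against 1.104 to 1.36).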

How the results depend on the processing

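Of 5797 called genes (2693 higher, 3104 lower), the number became 3111 (1295 and 1816) at an adjusted p under 0.01. DESeq2 called 4380 genes, 1771 higher and 2609 lower. On library totals with no scaling factor, added after the data were seen, 6950 were higher and 1638 lower, so scaling decides the split. Leaving out 1 line at a time gave 3854 to 5908 called genes, 1644 to 2685 higher and 2210 to 3223 lower, with the lowest counts without SK055676; without PGN 1734 were higher. The model with no line block called 6004 genes, against 5797 with the block. No called gene changed direction in the called genes shared with any of these fits. Among the 118 genes named, 93 were called, and between 0 and 14 lost the call under 1 alternative, most at 0.01. ELF3 was the only called one that reversed, to 0.00708 on library totals. Genes not called turned sign there as well, CHE to 0.0203, BOA to 0.0105, LUX to 0.14, PRR3 to 0.25, psbA to 0.0453 and CP12-1 to 0.0195. PRR3 also turned to 0.0209 with upper-quartile scaling, to 0.00595 with at least 50 reads in every library and to 0.0109 without the line block. Leaving out 1 line gave -0.0691 (without Col) to 0.4695 (without MEF37) for CCA1, -0.1315 (without SK137584) to 0.0403 (without Col) for PRR3, -0.287 (without SK137584) to 0.4002 (without Col) for AT3G50420 and -0.387 (without Col) to 0.4089 (without MEF37) for NIA2, none of them called. The plastid share differed by -1.605 to -1.08 percentage points and the mitochondrial share by 0.188 to 0.323 when 1 line was left out. The causes were not tested. What the replicate number stands for limits every statement, as does 1 library per line and set, so that a difference between lines in the shift cannot be tested.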

Other observations

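Lists on iron, copper, jasmonate, growth and development were mixed. Of 10 tested iron genes 3 were higher and 2 lower in set 3, which is 50% called against 33.2% over all genes. The median log2 fold change of the list was -0.096. FER1, a ferritin that stores iron in plastids, had 44.3, 72.4, 68.97, 97.5 and 59.2 CPM in set 2 and 498, 153, 295, 267 and 361 CPM in set 3, without overlap (log2 fold change 2.14, SE 0.32, adjusted p = 0.00157, edgeR's quasi-likelihood test). Of 7 copper genes 3 were higher and 1 lower (57.1% called), but without SK137584 1 and 1, when CSD1 was not called. They include CSD1, a copper superoxide dismutase, at 25.8 ± 7.06 CPM and 57.8 ± 19.0 CPM, and FSD1, the iron enzyme of the same function, at 427 ± 31.2 CPM and 201 ± 101 CPM (SD, n = 5). Of 23 tested jasmonate genes 2 were higher and 3 lower, which is 21.7% called against 33.2% over all genes, and 8 were called without MEF37. VSP1, a storage protein under jasmonate control, was at 1.02 to 13.5 CPM in set 2, at 0.127 to 0.778 CPM in set 3 and at 4.85 to 169 CPM in set 1, where the libraries of Col, MEF37 and PGN were the high ones. Of 15 tested salicylic acid genes 2 were higher, EDS5 and CBP60G, which is 13.3% called, and 0 were called without Col or without SK055676. The list medians by line ran from -0.70 in SK137584 to 1.73 in PGN.

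Of 17 tested growth and cell wall genes 5 were higher and 7 lower, which is 70.6% called against 33.2% over all genes. The higher ones included CESA1, a cellulose synthase of the primary wall, at 128 ± 5.09 CPM and 189 ± 8.97 CPM, and the lower ones CPD, an enzyme of brassinosteroid synthesis, at 56.9 ± 6.51 CPM and 37.6 ± 5.96 CPM (SD, n = 5). Of 25 glucosinolate genes 2 were higher and 10 lower (48% called), but on library totals 6 were higher and 5 lower. The lower ones were also 5 without PGN, without SK055676 or without SK137584. CYP79B3, of the indole branch, was lower under TMM at 21.5 ± 0.555 CPM and 10.1 ± 3.05 CPM. Of 10 tested senescence genes 4 were higher and 1 lower (50% called), with PPH, pheophytinase, at 25.5 ± 3.08 CPM and 54.1 ± 15.5 CPM. In Col the median log2 shift of this list was 1.44, and in the other lines it was -0.09 to 0.71. Of 8 tested flowering genes 3 were higher, SPL4, SPL9 and FUL, at log2 fold changes of 0.79, 0.72 and 0.65, which is 37.5% called against 33.2%. The count was 1 without SK137584, 2 without PGN or without SK055676 and 5 without MEF37. With at least 50 reads in every library 4 were tested and 0 called.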
